A study of Mus musculus with 6 samples.

Results

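The levels of 10 named long noncoding RNAs were examined in cultured mouse hepatocytes, the parenchymal cells of the liver. They were the nuclear RNAs *Malat1* and *Neat1*, the small nucleolar RNA (snoRNA) host genes *Gas5*, *Snhg1*, *Snhg8* and *Snhg12*, the microRNA host *Mir22hg*, the imprinted RNAs *H19* and *Meg3*, and *Pvt1*, the neighbour of *Myc*. These RNAs were given as a list of symbols, and all 10 were found among the 55487 gene rows of the count tables. Hepatocytes came from adult mice of 6 to 8 weeks that carried 2 copies of AEG-1-C75S or were their wild-type (WT) counterparts, both born to heterozygous parents. AEG-1, encoded by *Mtdh*, is a membrane protein of the endoplasmic reticulum, and C75S puts a serine in place of the cysteine that carries its palmitoyl group. The comparison addressed what changes in hepatocytes when that site cannot be palmitoylated. RNA was taken 48 h after isolation, every sample carries the treatment label Control, and each of the 2 genotypes has 3 libraries. The mouse strain, the sex and the number of mice behind the 3 libraries of each genotype are not given in the labels, so n counts libraries and p-values measure the spread between libraries, which may be technical.

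Depth ranged from 16944723 to 21044292 gene counts per library, and C75S replicate 1 was the shallowest. All 10 hepatocyte markers were detected, summing to between 75820 and 94450 CPM (counts scaled to a library size of 1000000) in a library, whereas 5 of 7 lymphocyte markers had no count in any library. Y-linked genes were expressed in all 6 libraries: *Kdm5d* lay between 35.1 and 40.0 CPM, and *Ddx3y* between 96.1 and 128.6 CPM, with a log2 fold change of 0.28 (adjusted p = 0.00319 in edgeR). *Xist*, the RNA that silences one X chromosome in female cells, lay at or below 0.39 CPM. *Mtdh* mRNA lay between 191 and 212 CPM in all libraries, and its log2 fold change was 0.02 (SE 0.05, adjusted p = 0.909 in edgeR). Counts summed over a gene do not show the mutated codon, so this value leaves the genotype labels unchecked.

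Long noncoding RNAs are transcripts that are processed much like mRNA but carry no long reading frame, and many of them stay in the nucleus. *Malat1* gathers in nuclear speckles, bodies rich in splicing factors, and *Neat1* is the scaffold on which paraspeckles, another nuclear body, are built. Genes of the Gas5 and Snhg kind carry snoRNAs in their introns. The snoRNAs guide chemical modification of ribosomal RNA, and the spliced exons that are left over are short-lived because translating ribosomes mark them for nonsense-mediated decay. *H19* and *Meg3* are abundant in fetal liver and are turned down after birth, and *Pvt1* lies downstream of *Myc* and is amplified with it in tumours.

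*Malat1* and *Neat1* are neighbouring genes on the minus strand of chromosome 19 (GRCm38), at chr19:5795690-5802672 and chr19:5824708-5845478. Each is annotated in GENCODE M21 as a single long exon block, of 6983 and 20771 bases. The ends of their long transcripts are shown because they set what a sequencing library can capture: both end in an encoded A-rich stretch that folds with U-rich stretches upstream, in place of an added poly(A) tail. Capitals mark the runs of at least 9 bases that the 2 windows of 95 bases share. The *Malat1* window lies at chr19:5795982-5796076 and ends 292 bases before the annotated end of the transcript, and the *Neat1* window lies at chr19:5824708-5824802, the last 95 bases.
Malat1: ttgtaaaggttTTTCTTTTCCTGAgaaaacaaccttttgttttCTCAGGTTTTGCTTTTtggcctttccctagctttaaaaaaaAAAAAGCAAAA
Neat1 long form: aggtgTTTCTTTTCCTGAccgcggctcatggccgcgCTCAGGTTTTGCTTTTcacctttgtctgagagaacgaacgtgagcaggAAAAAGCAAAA
The 3 shared runs measured 13, 16 and 11 bases and stood in the same order in both RNAs. *Neat1* also has a short form (3004 bases), which does receive a poly(A) tail. Its last 60 bases lie at chr19:5842307-5842366, and capitals mark the polyadenylation signal.
Neat1 short form: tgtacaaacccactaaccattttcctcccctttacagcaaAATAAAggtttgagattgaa
The labels do not say whether RNA was selected by its poly(A) tail. Of 9 matched RNAs that lack such a tail, 8 had too few counts to be tested, and *Rn7sk*, the RNA of the 7SK particle, averaged 3.16 ± 3.41 CPM in C75S and 3.72 ± 2.66 CPM in WT (SD, n = 3 each). The cause of these low counts was not tested, and multimapping reads were not counted to genes. The short and long forms of *Neat1* overlap, so the gene count used here adds them together and does not tell them apart.

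Start sites are shown for the snoRNA hosts, because genes of this class often begin with a 5′ terminal oligopyrimidine (TOP) tract, a C followed by further C or T bases that ties an RNA to the rate of translation. The windows run from 20 bases before the RefSeq start to 30 bases from it (GRCm38.p6), at chr1:161035146-161035195 for *Gas5* (the downstream of its 2 starts), chr19:8723467-8723516 for *Snhg1*, chr3:123508307-123508356 (minus strand) for *Snhg8* and chr4:132308658-132308707 for *Snhg12*. Capitals mark a C followed by at least 4 C or T bases, at the start or 1 base before it.
Gas5: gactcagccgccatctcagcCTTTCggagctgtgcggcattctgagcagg
Snhg1: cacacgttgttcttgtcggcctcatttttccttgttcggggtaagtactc
Snhg8: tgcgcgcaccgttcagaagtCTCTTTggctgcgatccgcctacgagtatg
Snhg12: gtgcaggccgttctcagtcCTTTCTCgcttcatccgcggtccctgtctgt
Among all 32851 RefSeq start windows, 4.37% held such a tract in this position, against 3 of the 9 windows of the genes described here. The rule as planned, with the C at the start itself, is narrower and leaves out *Snhg12*. It held for 2 of the 9 windows and for 2.51% of all windows. RefSeq gave start windows for 7 of the 10 genes, the other genes being *Neat1*, *H19* and *Pvt1*. The CRE sequence TGACGTCA, read on either strand in windows of 300 bases, occurred at 1 *Gas5* start and 1 *Meg3* start and in 1.79% of all windows. The E-box CACGTG occurred in 0 of the 9 and in 7.15% of all windows. The sequence CCAAT occurred in 3 of the 9 and in 37.41% of all windows, and TATAAA in 3 of the 9 and in 13.62%.

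Levels per length spanned a wide range. In WT hepatocytes, TPM values, the counterpart of CPM scaled by length, here the union of annotated exons, were 377 ± 33.6 for *Malat1*, 144 ± 9.94 for *Gas5* and 55.0 ± 6.31 for *Snhg8*. They were 40.1 ± 3.72 for *Neat1*, 32.2 ± 1.97 for *Mir22hg* and 29.2 ± 1.68 for *Snhg1*. *Snhg12* followed at 19.5 ± 1.05 and *Pvt1* at 5.44 ± 0.44 TPM (SD, n = 3 each). *Malat1* ranked 250th by this measure among all genes in WT. The libraries of neighbours in this order did not overlap, except for *Mir22hg* (30.4 to 34.3 TPM) and *Snhg1* (28.0 to 31.1 TPM). The order depended on the length used, because 20 of 25 *Gas5* transcripts and 14 of 18 *Snhg1* transcripts in the annotation retain an intron and so stretch the exon union. With the same counts set over the longest transcript that retains no intron, the WT value was 812 ± 56.2 for *Gas5*, above *Malat1*, and 122 ± 7.03 for *Snhg1*. Reads from retained introns stay in these values, and the scaling total was not recomputed. They therefore show how far the order depends on length and are not levels of the spliced RNA. If every *Neat1* read came from the short form, its WT level would be 277 TPM. Together the 10 RNAs took up 0.132% to 0.156% of the gene counts of a library.

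*Neat1* was lower in C75S hepatocytes, and it was the only one of the 8 RNAs with enough counts for a test that passed it. It measured 211, 230.3 and 234 CPM in C75S replicates 1 to 3 and 309.9, 268 and 267 CPM in WT replicates 1 to 3. All C75S libraries lay below all WT libraries, with C75S replicate 1 the lowest and WT replicate 1 the highest. The group means were 225 ± 12.0 and 282 ± 24.6 CPM (SD, n = 3 each). The log2 fold change was -0.32 (SE 0.06, adjusted p = 0.00158 in edgeR). *Neat1* thus fell by 19.9%, with a 95% interval for the log2 fold change from -0.44 to -0.20. Over all 12741 genes tested, 3.11% were called in either direction and 1.37% were called lower and 1.74% higher, and *Neat1* ranked 103rd by p-value.

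The size of this fall rested in part on the 2 outermost libraries. The log2 fold change was -0.28 without C75S replicate 1 (adjusted p = 0.0124 in edgeR), -0.25 without WT replicate 1 (0.0139) and -0.20 without both (0.0485). Each of the 17 alternative fits called *Neat1* lower. The ratio of raw counts within a library does not use library scaling: *Neat1* counts were 0.214, 0.282 and 0.277 of the *Malat1* counts in C75S and 0.331, 0.335 and 0.286 in WT. Relative to *Gas5*, *Neat1* stood at 1.24 ± 0.08 (C75S) and 1.54 ± 0.04 (WT, both SD, n = 3). For both ratios all C75S libraries lay below all WT libraries, though for *Malat1* the nearest libraries were 0.282 and 0.286.

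Other measures that could move with *Neat1* were set beside it. Reads on no annotated feature, which include reads from introns, made up 4.99% to 5.25% of reads in C75S and 5.18% to 5.55% in WT, and these ranges overlap. The unmapped share was 4.75% to 5.81% in C75S and 4.37% to 4.59% in WT, without overlap. The 7 cholangiocyte markers summed to between 180 and 234 CPM in C75S and between 160 and 168 CPM in WT. Of the 5 tested, *Krt19*, a keratin of bile duct cells, was called higher. *Spp1*, which made up most of the sum, was higher in every C75S library, with a log2 fold change of 0.53 (adjusted p = 0.235 in edgeR, 0.0037 in limma-voom, and called in 4 of the 17 alternative fits), and *Cftr* had no count. Summed endothelial markers were 35.8 to 46.4 CPM in C75S and 35.4 to 44.2 CPM in WT, most of it *Stab2*. Of 8 tested, 7 had a positive value and 0 were called, and *Pecam1* (log2 fold change 0.69, unadjusted p = 0.016), *Lyve1* (0.84, unadjusted p = 0.0069) and *Kdr* were higher in every C75S library. Summed stellate cell markers were 58.1 to 74.6 CPM in C75S and 72.2 to 93.6 CPM in WT, most of it *Reln*, at -0.36. *Reln* was not called in the main fit (adjusted p = 0.394 in edgeR). It was called lower with no filter on low counts (0.000921) and with no robust estimation (0.0433). Of the 5 stellate cell markers tested, *Acta2*, a smooth muscle actin, was called higher, but not without C75S replicate 1 or 2 or without WT replicate 2 or 3. Kupffer cell and macrophage markers summed to 96.6 to 140.5 CPM in C75S and 104 to 135 CPM in WT, most of it *Cd68*. Of 2 tested, 0 were called. *Clec4f* had 0 counts in every C75S library and 4, 0 and 0 counts in WT. In the other direction, *Marco* had 6, 6 and 6 counts in C75S and 1, 0 and 2 in WT. Both had too few counts to be tested. Of the 10 hepatocyte markers, *Cyp2e1*, a cytochrome P450, was called higher (log2 fold change 0.30, adjusted p = 0.00908 in edgeR). *Arg1*, the urea cycle arginase, and *Cyp3a11* were at -0.33 and -0.26 and lower in every C75S library. They were not called over all libraries, while 10 and 2 of the 17 alternative fits, in that order, called them. Of all 12741 genes tested, 18% had libraries that did not overlap between the genotypes, in either direction. The part of the differences listed above in the *Neat1* result was not tested. In bulk RNA, fewer cells that express an RNA and less of it per cell cannot be told apart.

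**Figure D1:**
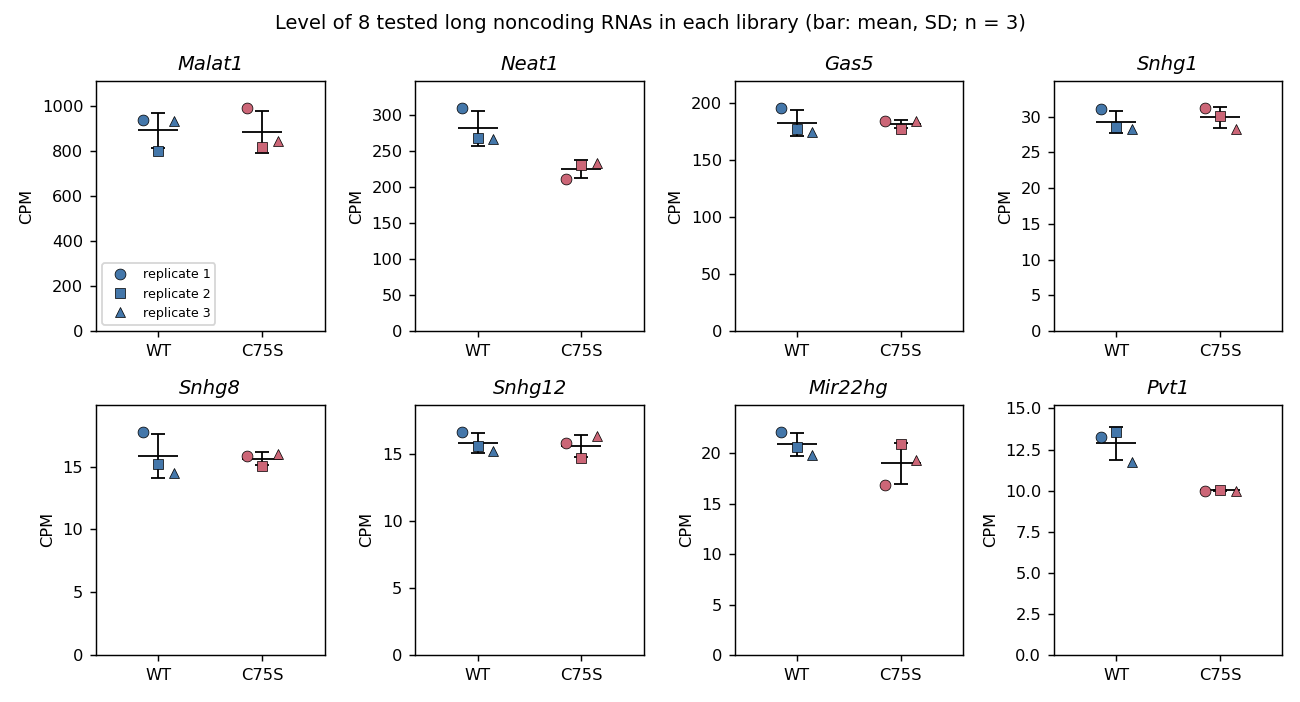
CPM (vertical axes, from 0) of each of the 8 tested RNAs in the 3 WT and 3 C75S libraries, with point shapes for the replicate number and bars for the mean ± SD. The C75S libraries of *Neat1* (211 to 234 CPM) and *Pvt1* (9.99 to 10.06 CPM) lie below all WT libraries, while the genotypes overlap for the other 6 RNAs.

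*Pvt1* (ENSMUSG00000097039, chr15:62037986-62378096, plus strand, 21 exon blocks) was lower by a similar amount but did not pass the test. It measured 9.99, 10.06 and 10.004 CPM in C75S and 13.3, 13.6 and 11.7 CPM in WT. The C75S libraries were nearly equal and all lay below the lowest WT library. The log2 fold change was -0.36 (SE 0.11, adjusted p = 0.0917 in edgeR, unadjusted p = 0.00385), with a 95% interval from -0.60 to -0.13. Counts were between 174 and 280 in a library, fewer than for any of the other tested RNAs. None of the 17 alternative fits called it, with adjusted p-values from 0.0853 to 0.287. Of all genes tested, 8.96% showed every C75S library below every WT library, as did 9.71% of the 824 long noncoding RNAs tested and 2 of the 8 tested RNAs described here, *Neat1* and *Pvt1*.

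*Malat1* (ENSMUSG00000092341), the most abundant of the 10 by CPM, varied between libraries more than between genotypes. It measured 990.3, 816 and 844 CPM in C75S and 937, 799 and 934 CPM in WT. The highest library, C75S replicate 1, was also the one with the lowest *Neat1*. The log2 fold change was -0.01 (SE 0.07, adjusted p = 0.973 in edgeR), and its 95% interval, from -0.17 to 0.15, allows a change of up to 10.9% down or 10.6% up. The sign of so small a value turned to positive in 5 of the 17 alternative fits. Malat1 reads were almost purely sense: 21 of the counts over all libraries lay on the opposite strand against 105593 on its own.

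The 4 snoRNA hosts did not differ detectably between genotypes. *Gas5* (ENSMUSG00000053332, chr1:161034422-161038539, plus strand), first found as an RNA that builds up in growth-arrested cells, measured 184, 178 and 184 CPM in C75S and 196, 177 and 174 CPM in WT. Its log2 fold change of -0.01 (SE 0.05, adjusted p = 0.976 in edgeR) had a 95% interval from -0.11 to 0.10, the narrowest among the 8 RNAs. *Snhg1* (chr19:8723475-8726443, plus strand) measured 31.2, 30.1 and 28.3 CPM in C75S and 31.1, 28.6 and 28.3 CPM in WT. *Snhg8* (chr3:123507552-123508404, minus strand) measured 15.8, 15.04 and 16.05 CPM in C75S and 17.8, 15.3 and 14.5 CPM in WT. *Snhg12* (chr4:132308623-132311024, plus strand) measured 15.8, 14.7 and 16.3 CPM in C75S and 16.7, 15.6 and 15.2 CPM in WT. WT replicate 1 was the highest WT library for each of the 4, and the genotypes overlapped for each. The log2 fold changes of these last 3 RNAs were 0.03, -0.02 and -0.02, with 95% intervals that reached no further than -0.23 and 0.19. Reads that fall on a snoRNA annotated inside these exon unions count for neither gene, since between 130 bases (*Snhg8*) and 746 bases (*Gas5*) overlap other genes on the same strand.

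The profiles of the hosts over the 6 libraries lay close together, though such closeness was not particular to them. After each RNA's own mean was subtracted, the root mean square difference of log2 CPM was 0.03 between *Gas5* and *Snhg12* and 0.04 between *Gas5* and *Snhg8*. Over all 6 pairs of hosts it reached 0.08, between *Snhg1* and *Snhg12*. From *Gas5* the median over tested genes without clone names was 0.12, and the closest of them, *Ppp2r5c*, lay at 0.01. *Malat1* stood 0.10 to 0.12 from the hosts. *Neat1* stood 0.17 to 0.20 from the hosts and 0.09 from *Pvt1*. These distances describe 6 libraries and have no test.

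*Mir22hg* (ENSMUSG00000085148, chr11:75461539-75466676, plus strand) is the transcript from which microRNA miR-22 is cut. The 2 mature products lie inside it, at chr11:75463734-75463755 and chr11:75463772-75463793. They are shown with bases 2 to 8, the seed that selects targets, in capitals.
mmu-miR-22-5p: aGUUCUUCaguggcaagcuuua
mmu-miR-22-3p: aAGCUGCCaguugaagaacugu
The host measured 16.8, 20.9 and 19.3 CPM in C75S and 22.2, 20.7 and 19.9 CPM in WT. C75S replicate 1 lay below the other 5 libraries and the genotypes overlapped. The log2 fold change was -0.13 (SE 0.09, adjusted p = 0.6003 in edgeR), and it shrank to -0.01 without C75S replicate 1 and WT replicate 1, so these libraries carried most of it. Exons of *Mir22hg* and of *Tlcd2*, on the same strand, overlap, and reads in the 301 bases it shares with other genes were not counted. The mature microRNAs were not measured here.

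The imprinted RNAs were nearly silent. *H19* (ENSMUSG00000000031, chr7:142575529-142578143, minus strand), which in fetal liver is among the most abundant transcripts, had 0 counts in all 6 libraries, which at this depth allows up to 3 counts, or 0.142 to 0.172 CPM, per library. *Meg3* (ENSMUSG00000021268, chr12:109541001-109571726, plus strand) had 0, 2 and 4 counts in C75S and 1, 0 and 0 counts in WT. Neither could be tested, and a difference in *Meg3* was not detectable at this depth. Partners in the same clusters were also low. *Rian* averaged 0.035 CPM in C75S and had no count in WT, *Dlk1* averaged 0.019 and 0.016 CPM, and *Igf2* averaged 0.038 CPM in C75S with no count in WT. *Mirg* stood above these, with 2 to 6 counts in every library and means of 0.22 and 0.23 CPM. Of the 15 genes of the imprinted network that were listed, 5 were tested and 0 were called, with a median log2 fold change of -0.10 against -0.003 over all genes tested. The median was 0.02 with no filter on low counts, which brings in more of the list, and -0.21 without C75S replicate 1. The 2 most abundant, *Slc38a4* (an amino acid transporter of hepatocytes) and *Igf2r* (the receptor that clears IGF2), had log2 fold changes of -0.10 and -0.10 (adjusted p = 0.498 and 0.472 in edgeR).

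**Figure D2:**
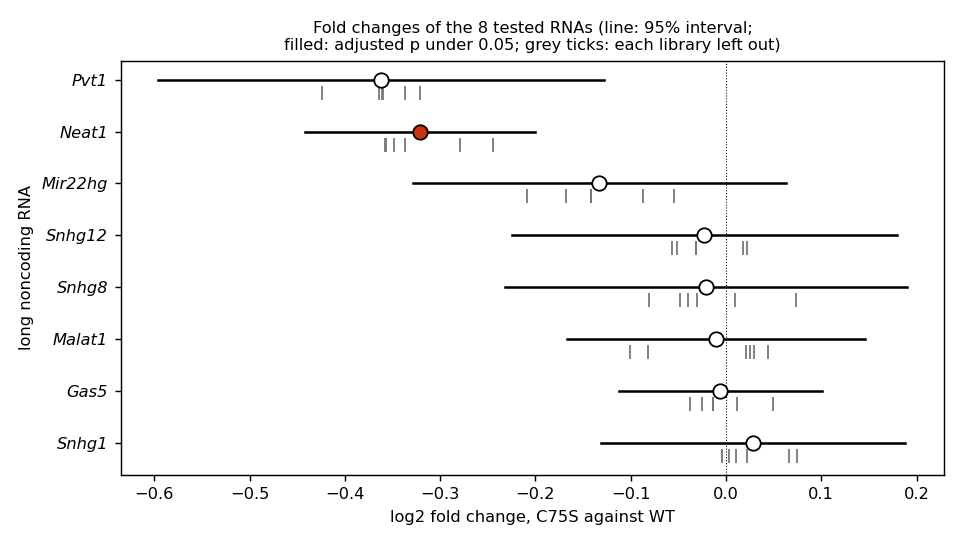
Log2 fold change of C75S against WT (horizontal axis) for the 8 tested RNAs, with 95% intervals as lines, a filled point where the adjusted p is under 0.05, and grey ticks for the value when each library is left out. Only *Neat1* is filled, its ticks run from -0.36 to -0.25, and the intervals of *Neat1* and *Pvt1* are the ones that do not reach 0.

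Protein-coding genes next to the RNAs were read from the same fit. Next to *Neat1*, *Frmd8*, a membrane-linked scaffold gene 4224 bases away on the same strand, measured 64.8 ± 4.58 CPM in C75S and 67.0 ± 5.45 CPM in WT (SD, n = 3 each; log2 fold change -0.05, adjusted p = 0.825 in edgeR). *Myc*, the transcription factor 47612 bases from *Pvt1*, measured 176 ± 4.55 CPM in C75S and 173 ± 15.5 CPM in WT, with a change of 0.03 on the log2 scale (SE 0.06, adjusted p = 0.894 in edgeR). *Slc3a2*, an amino acid transporter subunit that starts 106 bases from *Snhg1* on the opposite strand, was at 0.06, *Trnau1ap* next to *Snhg12* at -0.02, *Zbtb37* opposite *Gas5* at -0.15, *Tlcd2* beside *Mir22hg* at 0.07 and *Mrpl23* beside *H19* at 0.16. None of these 7 neighbours was called by edgeR, 0 had an unadjusted p under 0.05, and *Prss12* and *Rtl1*, next to *Snhg8* and *Meg3*, had no count.

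Genes tied to these RNAs by function were taken from lists and described by counts. Of 14 paraspeckle proteins, which bind *Neat1*, all were tested, 0 were called and the median log2 fold change was 0.002, with 7 positive and 7 negative. *Nono* and *Sfpq*, which form the core of paraspeckles, were at 0.02 and 0.05, *Pspc1* was at 0.08, and *Hnrnpk*, at 218 and 217 CPM in C75S and WT, was at 0.01. *Dazap1*, at 0.12, had the smallest p of the list (unadjusted p = 0.0313, adjusted p = 0.296 in edgeR). Of 13 proteins of nuclear speckles or of Malat1 processing, 0 were called, with a median of -0.03. Their 2 most abundant members, the speckle scaffolds *Srrm2* and *Son*, were at -0.07 and -0.10 (adjusted p = 0.581 and 0.381 in edgeR). Every C75S library lay below every WT library for these 2 of the 13, as for 8.96% of all genes tested.

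Of 20 noncoding snoRNA hosts listed, including the 4 above, 17 were matched and 16 tested, with 0 called and a median log2 fold change of -0.10. Of these values, 14 were negative and 2 positive. The median over all 824 long noncoding RNAs tested was -0.09. The median of the noncoding hosts was -0.02 without C75S replicate 2. *Gas5* and *Snhg17* were the most abundant, and *Snhg17* measured 36.1 ± 1.20 CPM in C75S and 39.2 ± 2.12 CPM in WT (log2 fold change -0.12, adjusted p = 0.502 in edgeR). *Snhg11*, at -0.39, was not called over all libraries (adjusted p = 0.210 in edgeR) but was called lower without C75S replicate 1 (0.0337) and with no filter on low counts (0.0313). The 15 protein-coding genes that host snoRNAs had a median of 0.03 with 0 called, among them *Eef2*, the elongation factor, at -0.02 and *Rack1*, a protein of the small ribosomal subunit, at 0.01. *Tpt1* in that list was called higher only without WT replicate 1 (log2 fold change 0.43, adjusted p = 0.0146 in edgeR) and without both first replicates (0.33, 0.00244), against 0.15 over all libraries. The 14 factors of nonsense-mediated decay had a median of -0.01 with 0 called. Over all 12741 genes tested, 1709 had an unadjusted p under 0.05 in edgeR. Among the lists with 0 called, such genes numbered 1 of the noncoding hosts, 1 of the protein-coding hosts and 1 of the paraspeckle proteins. They numbered 0 of the speckle, decay and imprinted lists. Neither DESeq2 nor limma-voom called any gene of these lists. The 2 most abundant decay factors were *Smg1*, the kinase of the pathway, at -0.07 and *Smg5* at -0.001.

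Of 11 microRNA hosts and related RNAs listed, 6 were tested and 1 was called, *Mirt1*. *Mirt1* is known for its association with myocardial infarction and not as a microRNA host, and none of the other 5 was called. It measured 5.34, 6.45 and 5.24 CPM in C75S and 3.13, 3.70 and 3.25 CPM in WT. Every C75S library of *Mirt1* lay above every WT library, while 18% of all genes tested were separated in either direction. Its log2 fold change of 0.76 (SE 0.18, adjusted p = 0.0173 in edgeR) was called in 14 of the 17 alternative fits, the exceptions being those without C75S replicate 2 (adjusted p = 0.120 in edgeR), without WT replicate 3 and without both first replicates. *Mir17hg*, the host of the miR-17 cluster, was at -0.04. Of 30 other named long noncoding RNAs, 13 were tested and 0 were called. Their median log2 fold change was -0.14, with 5 positive and 8 negative. An unadjusted p under 0.05 in edgeR was found for 2 of them, *Sra1* and *Firre*, against 1709 of all 12741 genes tested. *Sra1* was higher in C75S, at 43.3 CPM against 36.9 CPM in WT (log2 fold change 0.23, unadjusted p = 0.00247, adjusted p = 0.0672 in edgeR). *Firre*, at 61.0 and 67.5 CPM in C75S and WT, and *Tug1*, at 47.8 and 47.7 CPM, were the most abundant, with log2 fold changes of -0.15 and 0.003 (adjusted p = 0.234 and 0.990 in edgeR).

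**Figure D3:**
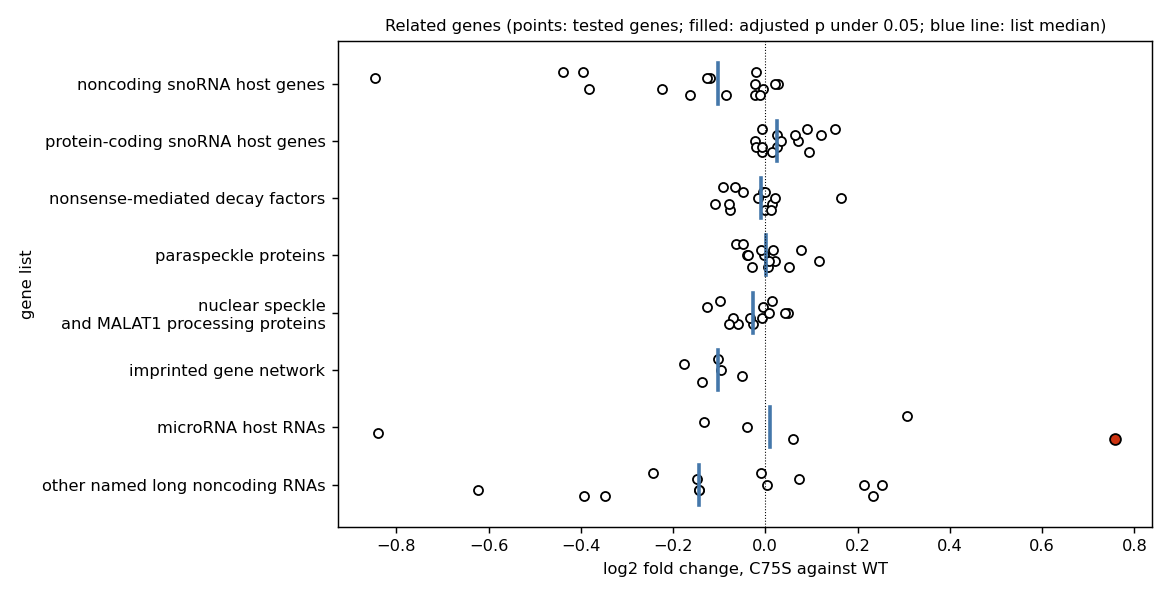
Log2 fold change of C75S against WT (horizontal axis) for every tested gene of 8 lists (vertical axis), filled where the adjusted p is under 0.05, with a blue line at each list's median. The single filled point is *Mirt1* at 0.76, which stands in the list of microRNA hosts without being known as one, and the paraspeckle proteins, with a median of 0.002, lie within -0.06 and 0.12.

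The whole class of long noncoding RNAs was read from the same fit. Of 824 long noncoding RNAs tested, by GENCODE's own list, which includes its provisional class TEC, 7 were called, or 0.85% against 3.11% of all genes. These shares were not tested against each other. Most of the class had few counts, with 326 RNAs under 1 CPM and 372 between 1 and 5 CPM. The class also holds rows under the symbols of genes known to code for proteins, such as *Cct6a*, a chaperonin subunit (mean CPM 269.8 in C75S, 263.5 in WT), so it is not made up of noncoding genes alone. Of the 7 called, 6 were lower in C75S (0.728% of the 824) and 1, *Mirt1*, was higher (0.121%). *Neat1* was the most abundant of the 7 and, by p-value, came after *AC127342.1*, a lincRNA named here after its values were seen, which fell from 12.5 ± 1.07 to 6.26 ± 1.28 CPM (SD, n = 3 each; log2 fold change -0.995, SE 0.14, adjusted p = 9.39e-05 in edgeR). *Neat1* and *AC127342.1* were called in all 17 alternative fits, and each of the other 5 lost its call in at least 2. Apart from *Neat1* and *Mirt1* the called RNAs have clone names and no described role is given here.

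Values below 0 were more frequent in this class than among all genes, as a description without a test: 62% of the 824 log2 fold changes were negative, against 50.9% of all genes, and the median was -0.09 against -0.003. Among RNAs at 20 CPM or more, the level range of *Neat1*, *Malat1*, *Gas5* and *Snhg1*, the median was -0.01 over 33 long noncoding RNAs and 0.002 over 6758 other genes, and 60.6% against 49.2% of the values were negative. Below 1 CPM the median was -0.15 over 326 and 0.05 over 755, and 60.4% against 46.4% were negative. Without WT replicate 1 the median over the class was -0.05, with 55.1% negative. Of the 8 tested RNAs described here, 7 had a negative value and their median was -0.02.

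**Figure D4:**
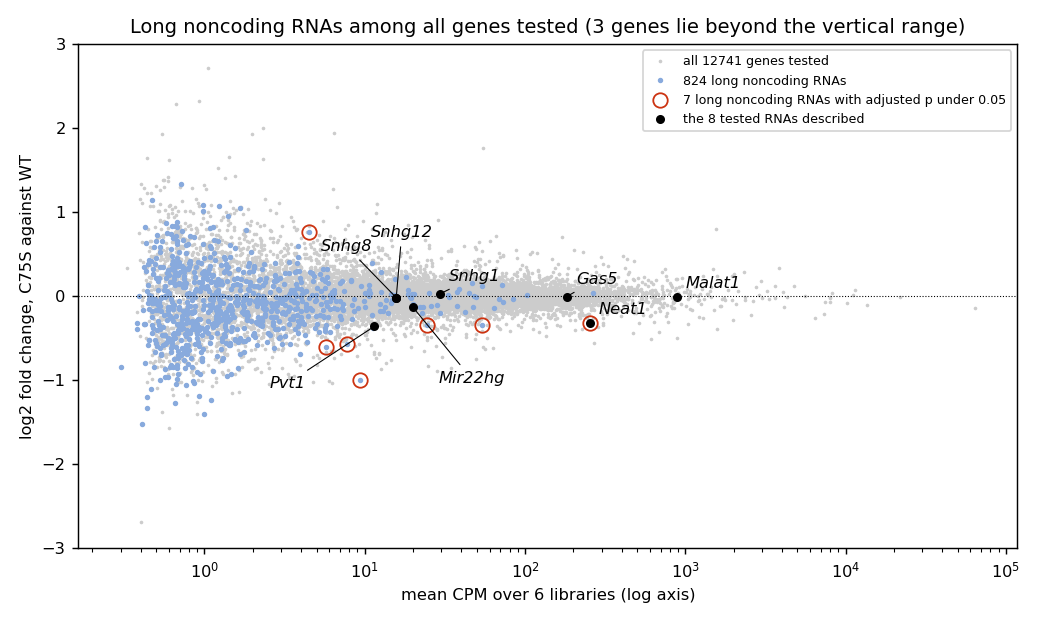
Log2 fold change of C75S against WT (vertical axis) against mean CPM over 6 libraries (log axis) for all 12741 genes tested (grey), the 824 long noncoding RNAs (blue), the 7 with an adjusted p under 0.05 (red rings) and the 8 RNAs described (black). *Neat1*, near 253 CPM, is ringed and lies below 0, while *Malat1*, *Gas5* and the Snhg genes lie on the line at 0.

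The genes whose profiles over the 6 libraries came closest to the 3 most abundant RNAs were found by the same root mean square difference. For *Neat1* they were *Pgm2l1* (0.03), *Kyat1* (0.05) and *Thnsl1* (0.05), against a median of 0.21 over all genes. *Kyat1*, a kynurenine aminotransferase, was itself called lower in C75S, at 62.2, 65.0 and 69.2 CPM in C75S and 84.1, 75.6 and 73.3 CPM in WT (log2 fold change -0.25, adjusted p = 0.025 in edgeR), while *Pgm2l1* and *Thnsl1*, at -0.31 and -0.30, were not (0.266 and 0.242). For *Malat1* they were *Chek2* (0.02), *Srsf10* (0.03) and *Dclre1b* (0.03), and for *Gas5* they were *Ppp2r5c*, *Rogdi* and *Prpf18* (0.01 each). These genes were picked as the closest of all genes tested over 6 libraries, so the closeness is a description without a test. Because *Neat1* was lower in C75S, lower values in the genes closest to it, and the *Kyat1* call, come with that choice. They are no separate result.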

How the data were processed

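The authors deposited 1 table of raw counts per library, with unstranded, forward-strand and reverse-strand counts per Ensembl gene in the layout of STAR. Trim Galore 0.6.6, STAR 2.7.9a and edgeR 3.36.0, and the builds mm10 and GRCm38, are named per the submitters' processing notes. The annotation release is not given in the sources used here. The library kit was Illumina's TruSeq RNA, per the labels' protocols. The reverse-strand counts, 33.3 times the forward-strand ones, were used. The 4 summary rows were left out. Multimapping reads (17.98% to 18.54% of reads) were not counted to genes.

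Genes were filtered with filterByExpr (minimum count 10, minimum total 15), scaled by TMM and tested by robust quasi-likelihood in edgeR 4.0.16 under R 4.3.3, with genotype as the single term and Benjamini-Hochberg adjustment over 12741 genes (threshold 0.05). CPM use TMM-scaled library sizes. A standard error is the fold change over the square root of F. TPM use GENCODE M21 exon unions, and 55227 of 55487 gene rows matched M21. Positions are 1-based, GRCm38. The procedure was tested on simulated data. The 10 RNAs and the gene lists were chosen with earlier results of these data known. Of 210 list entries, 1 was matched by a synonym, 7 were unmatched and 3 ambiguous. Genes named beside the 10 RNAs are the called and the 2 most abundant members of each list, nearest protein-coding genes, called long noncoding RNAs without clone names, the closest profiles, and a few others named for their role or their values after these were seen. Counting intervals and floors cover counting error only. One neighbouring gene is not reported here.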

Additional observations from a re-analysis of the deposited data

How the results depend on the processing

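The call of *Neat1* as lower and the absence of a call for the other 7 tested RNAs held in all 17 alternative fits (3 other scalings, by RLE, upper quartile or library size, 2 other filters, DESeq2 1.42.0, limma-voom in limma 3.58.1, unstranded counts, a replicate block, no robust estimation, each library left out, and, added after the data were seen, both first replicates left out). The log2 fold change of *Neat1* ranged from -0.358 to -0.202 and that of *Pvt1* from -0.424 to -0.321. Values near 0 changed sign. With library-size scaling, which moved the median of all genes by 0.012, *Malat1* was at 0.003 and *Gas5* at 0.006. Without both first replicates *Gas5* was at 0.041, *Snhg8* at 0.063 and *Snhg12* at 0.008. With each library left out in turn, *Malat1* ranged from -0.101 to 0.044, *Gas5* from -0.038 to 0.049, *Snhg1* from -0.004 to 0.074, *Snhg8* from -0.081 to 0.073 and *Snhg12* from -0.057 to 0.022. The 396 genes called over all genes fell to 238 without both first replicates and ranged from 201 to 355 with 1 library left out, and the 7 long noncoding RNAs called fell to 4 and ranged from 3 to 7. The unfiltered fit called 573 genes, 290 higher and 283 lower against 222 and 174. Fewer libraries enter the fits that leave libraries out, while the unfiltered fit uses all libraries and tests 23278 genes. The cause of these differences in number was not tested. With the replicate block *Neat1* was at -0.319 (edgeR adjusted p = 0.003), and 480 genes were called. The labels do not say whether libraries with the same replicate number are paired. Deviations of same-numbered libraries from their group means correlated at 0.017, -0.040 and 0.025. Whether the numbers mark a pairing or a batch was not tested. Depth limits *H19* and *Meg3*, which could not be tested in the filtered fit.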
